A study of Homo sapiens with 24 samples.

Results

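The lysosome, autophagy and TFEB genes described here are 37 genes named by symbol. Each symbol was matched to its Ensembl identifier, and all 37 were found among the 60675 genes of the table, of which 19586 are protein coding. They comprise 4 proteins of the lysosomal membrane, 6 proteases, 7 hydrolases and cofactors that act on glycans, sulfates and lipids, 4 genes of the ATG8 family and its cargo receptor, 8 genes of autophagosome formation, the 3 MiT/TFE transcription factors of the list and 5 genes of the Rag GTPase and folliculin machinery. RNA-seq was performed on SW1783, a human astrocytoma cell line, after 24 h of treatment, in 8 groups of 3 libraries. Batch A held cells treated with a water extract of Schisandrae Fructus (WESF) at 20 (low), 100 (medium) or 500 µg/mL (high) and its own vehicle (vehicle A). Batch B held cells treated with an ethanol extract (EESF) at 12.4 (low), 62 (medium) or 310 µg/mL (high) and its own vehicle (vehicle B). Both vehicles were labelled 0.1% DMSO. By the study's methods the high dose of EESF was mildly toxic to these cells in a screen and that of WESF was not. Every group is the same unmodified line, and because each extract was run in 1 batch, extract and batch cannot be told apart. Nothing states that the 3 libraries of a group came from separate cultures, so p-values measure only the spread between these libraries. Expected counts summed to 18727797 to 32567395 per library, and the widest gap within a comparison was in batch B, with 18727797 to 20465712 in vehicle B and 29659110 to 32567395 in high-dose EESF.

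Lysosomes are acidic organelles that break down macromolecules delivered by endocytosis and by autophagy, in which a double membrane closes around cytoplasm and fuses with the lysosome. TFEB, TFE3 and MITF are related transcription factors that bind short E-box sequences near the start of many lysosomal and autophagy genes. When amino acids are plentiful, the Rag GTPases with folliculin bring mTORC1 and these factors to the lysosome, where phosphorylation holds TFEB and TFE3 in the cytoplasm. Their control is therefore largely a matter of location in the cell, which an RNA level does not show.

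The E-box sequence that these factors bind was searched in the promoter table of RefSeq (GRCh38.p14), which holds 250 bases before and 50 after each annotated start. Of the 37 members, 30 had an entry there, with 39 promoters between them. The E-box letters CACGTG, which read the same on both strands, were in 8 of these 39 promoters (20.5%), against 9.21% of the 15687 promoters of genes tested at the high dose of WESF and 7.26% of all 35116. In the 153 promoters of the other lysosomal, autophagy and mTORC1 genes described further on, the share was 13.7%. Because the members were picked as lysosome, autophagy and TFEB genes, a share above the background can follow from that choice alone. The longer form TCACGTG, searched on both strands, was in the same 8 members (LAMP1, MCOLN1, CTSA, CTSD, GAA, NEU1, RRAGC and FNIP1) and in 5.24% of the promoters of genes tested and 11.8% of those of the other lists. The full palindrome GTCACGTGAC, which contains both shorter forms, was in 5.13% of the members' promoters against 0.65% of those of tested genes and 2.61% of those of the other lists. It was found in 2 members, MCOLN1 and GAA, which are shown because each carries 2 E-boxes in the 100 bases before its start and because their RNA went opposite ways at the high doses. Both are on the + strand, with the extended match in capitals, MCOLN1 at chr19:7522524-7522623 and GAA at chr17:80101481-80101580.
MCOLN1: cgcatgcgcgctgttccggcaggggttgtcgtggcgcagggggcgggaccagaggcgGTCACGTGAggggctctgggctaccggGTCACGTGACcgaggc
GAA: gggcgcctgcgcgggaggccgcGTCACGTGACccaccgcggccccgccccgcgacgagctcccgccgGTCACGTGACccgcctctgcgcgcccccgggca
The other 6 are represented by 1 window of 30 bases each, on the strand of the gene and with the match in capitals: LAMP1 at chr13:113297199-113297228 (+), CTSA at chr20:45891298-45891327 (+), CTSD at chr11:1763957-1763986 (-), NEU1 at chr6:31862930-31862959 (-), RRAGC at chr1:38859867-38859896 (-) and FNIP1 at chr5:131797175-131797204 (-).
LAMP1: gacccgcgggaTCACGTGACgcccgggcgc
CTSA: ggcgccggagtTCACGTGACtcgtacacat
CTSD: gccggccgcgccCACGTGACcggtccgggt
NEU1: atgctgcgtgaTCACGTGggaggagatgag
RRAGC: aggtgattccggCACGTGACggggcaccac
FNIP1: ccccgcccctgcCACGTGACgggacccgcc
E-boxes also occurred more than once in LAMP1 (beginning at -192, -176, -159, -142, -28 and -1 from its start), CTSA (-42 and -25) and FNIP1 (-175 and -94). A match is a stretch of letters, not a measured binding site, and members without one lack only these letters in this window.

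High-dose WESF changed most of the members, in both directions. Compared with vehicle A, 9 rose, 16 fell and 12 were not called, where rose, fell and called mean an adjusted p under 0.05 (edgeR's quasi-likelihood test, Benjamini-Hochberg adjustment over all genes tested). These 25 calls stand beside a background of 68.9% of all 13129 genes tested, so a called member was not unusual in this comparison. Differentially expressed genes (DEGs), which also had to pass a fold change of 1.5, were WIPI1, NPC1 and MAP1LC3B among those that rose and TFEB, SGSH, MCOLN1 and SQSTM1 among those that fell, 7 members where 24.1% of all genes tested were DEGs. The median log2 fold change was -0.03 over the members and 0.00 over all genes tested, with members ranging from -0.96 to 1.38. The libraries of 26 members did not overlap between the groups (background 71.5%).

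Fewer members were called with high-dose EESF. Compared with vehicle B, 8 rose, 13 fell and 16 were not called, beside a background of 58.0% of 13092 genes. DEGs were WIPI1, which rose, and SGSH and MITF, which fell (background 17.4%). The median log2 fold change was -0.08 over the members and 0.01 over all genes tested, and 27 members had groups that did not overlap (background 62.8%). Of the members, 18 were called with both extracts, 72% of the WESF calls and 85.7% of the EESF calls, and all 18 went the same way, 7 up and 11 down. Over all genes tested with both, these shares were 68.2% and 81.1%, and 96.7% of the 6121 called with both went the same way. The summed level of the 37 members moved little. It was 5126 to 5318 CPM in vehicle A and, without overlap, lower at 5036 to 5101 in high-dose WESF. In batch B the groups overlapped, at 5128 to 5330 CPM with the vehicle and 5077 to 5131 with high-dose EESF. CPM are counts relative to the library size after TMM scaling. In bulk RNA, fewer cells of a type and less RNA per cell cannot be told apart.

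**Figure D1:**
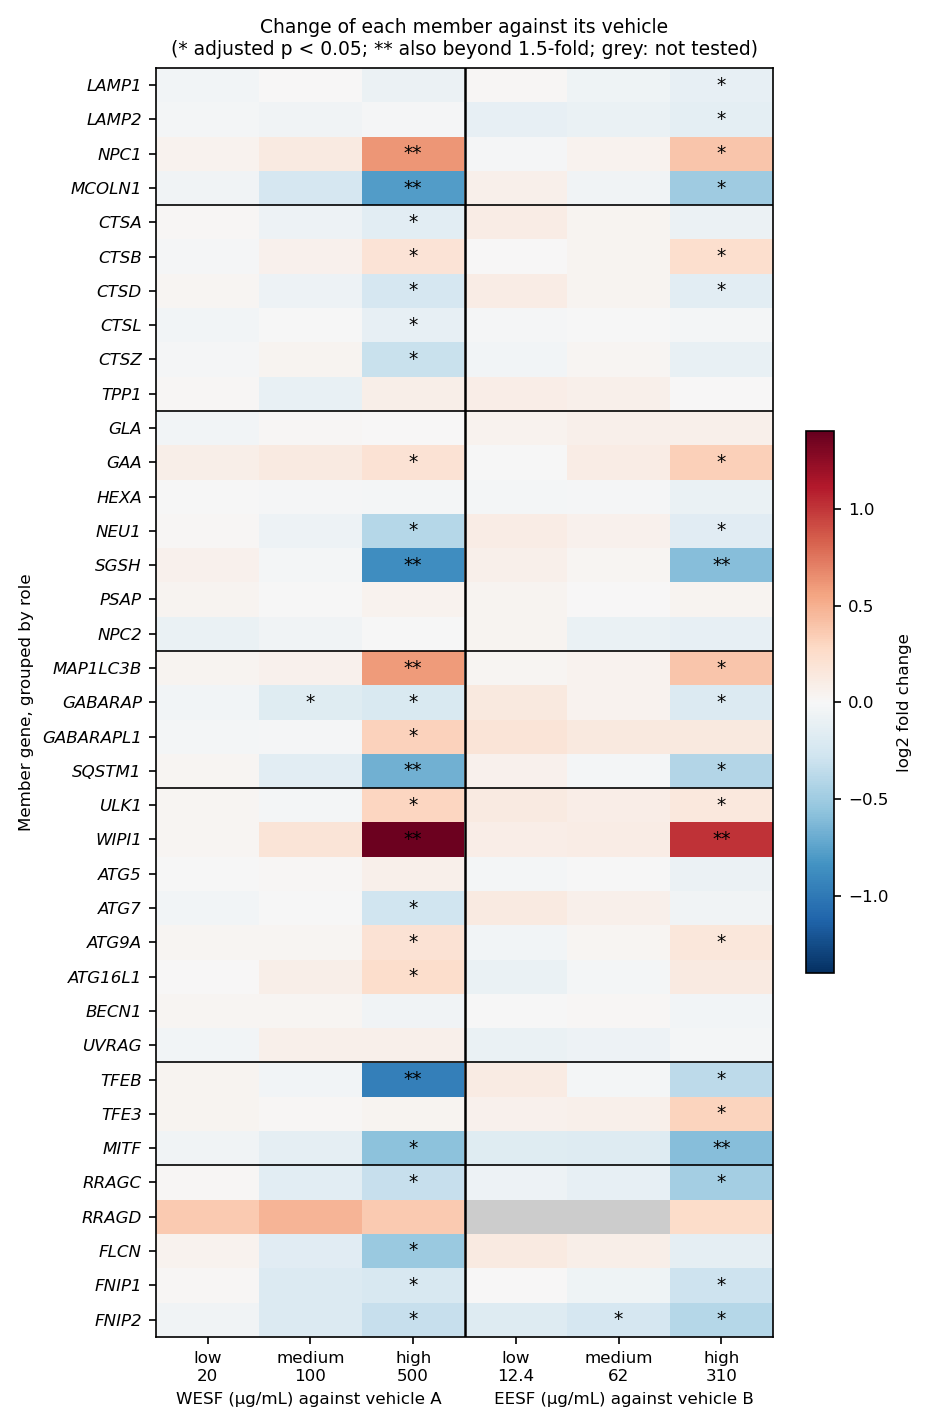
Log2 fold change of each of the 37 members (rows, grouped by role) in the 6 comparisons of a dose with the vehicle of its batch (columns, dose in µg/mL), red for higher and blue for lower than vehicle. Called changes are concentrated in the high-dose columns, where WIPI1 reached 1.38 and 1.01 and TFEB -0.96 and -0.36.

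The 3 MiT/TFE transcription factors differed from each other in level and in response. Per kilobase of annotated exon in vehicle B, TFE3 stood at 37.6 ± 0.52 CPM, MITF at 3.60 ± 0.34 and TFEB at 1.87 ± 0.044 (SD, n = 3), so TFE3 was the most abundant of these 3 RNAs. With the longest transcript as the length the values were 48.0, 5.56 and 3.49 CPM, in the same order. TFEB, the namesake regulator of lysosomal genes (chr6:41683978-41736259, - strand, GRCh38), was measured at 14.7, 12.6 and 13.1 CPM in vehicle A and at 6.73, 7.44 and 6.70 CPM in high-dose WESF. The groups did not overlap, and the fitted fold was 0.515 of vehicle (log2 fold change -0.96, SE 0.089, adjusted p 5.81e-08). In batch B it was 12.3, 12.8 and 12.7 CPM with the vehicle and 8.87, 9.46 and 11.03 CPM with high-dose EESF. These groups were also apart, with a smaller fall of 0.36 on the log2 scale (SE 0.093, adjusted p 0.00526). At the low and medium doses of either extract TFEB stayed between 12.1 and 15.4 CPM, close to the vehicles, and was not called. TFEB was sampled thinly, with 151 to 398 counts per library.

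MITF, the member of the family best known from melanocytes (chr3:69739456-69968336, + strand), fell by nearly the same amount with both extracts. Its libraries held 23.4, 27.7 and 27.2 CPM in vehicle A and 16.9, 18.9 and 16.9 CPM in high-dose WESF. They held 24.2, 29.3 and 26.6 CPM in vehicle B and 18.7, 17.5 and 16.7 CPM in high-dose EESF. No high-dose library reached the lowest vehicle library, and MITF changed by -0.58 (SE 0.075, adjusted p 2.95e-06) with WESF and by -0.60 (SE 0.080, adjusted p 4.42e-05) with EESF on the log2 scale. With WESF it fell just short of the 1.5-fold threshold and with EESF just past it.

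TFE3 (chrX:49028726-49043410, - strand) rose with 1 extract. It was 162, 157 and 161 CPM in vehicle A and 166, 158 and 169 CPM in high-dose WESF, groups that overlapped (0.04 on the log2 scale, SE 0.043, adjusted p 0.472). It was 159, 156 and 160 CPM in vehicle B and 193, 193 and 200 CPM in high-dose EESF. Every EESF library lay above every vehicle library, a rise of 0.31 on the log2 scale (SE 0.048, adjusted p 0.000157).

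**Figure D2:**
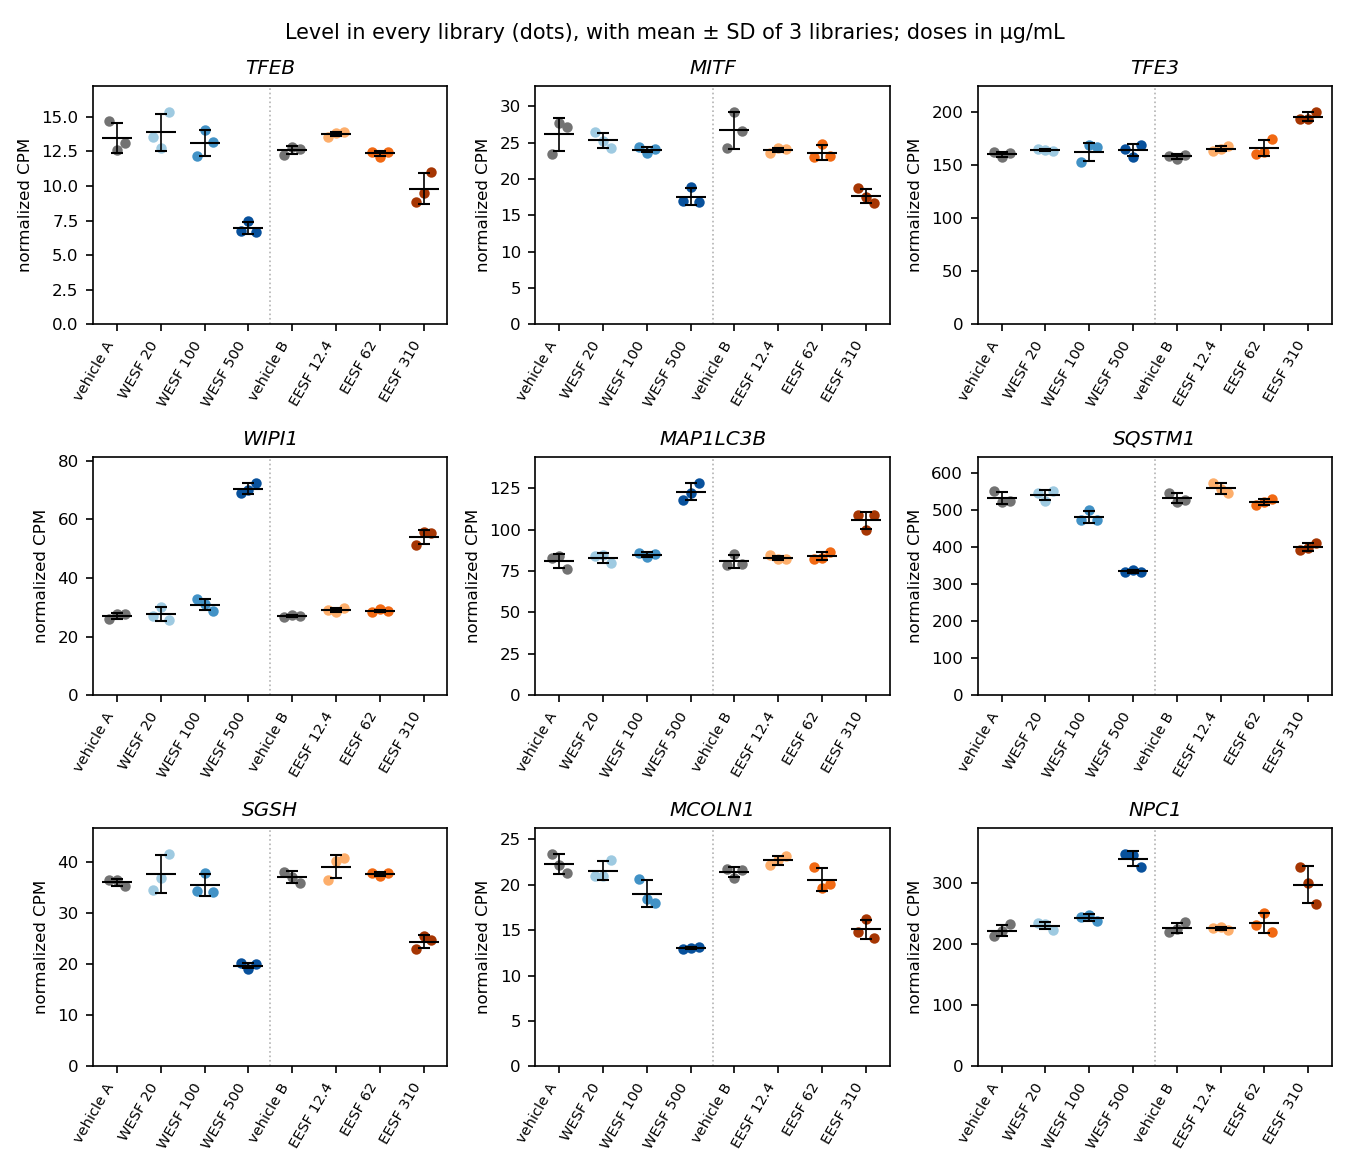
Normalized CPM of 9 members in all 24 libraries (dots, 3 per group), with the mean and SD of each group in black and the batches divided by a dotted line; each panel has its own scale from 0. The high-dose groups lie apart from their vehicles in every panel except TFE3 with WESF. The low- and medium-dose groups lie closer to the vehicles, although some do not overlap them. Among these are SQSTM1 at medium-dose WESF (473 to 501 CPM, vehicle A 522 to 553 CPM) and WIPI1 at low-dose EESF (28.3 to 29.6 CPM, vehicle B 26.5 to 27.3 CPM).

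Of the genes that act around the Rag GTPases, 4 of 5 fell with WESF and 3 of 5 with EESF, and none rose. Over all genes tested, 34.6% and 28.7% were lower. RagC and RagD are GTPases that recruit mTORC1 to the lysosome, folliculin (FLCN) is the activator of these 2, and FNIP1 and FNIP2 are its partners. With high-dose WESF FLCN fell by 0.52, FNIP2 by 0.33, RRAGC by 0.32 and FNIP1 by 0.22 on the log2 scale. With high-dose EESF RRAGC fell by 0.47, FNIP2 by 0.40 and FNIP1 by 0.29. FLCN was 41.7, 36.6 and 43.2 CPM in vehicle B and 35.3, 38.2 and 37.7 CPM in high-dose EESF, overlapping groups where the change was -0.13 (SE 0.071, adjusted p 0.14). RRAGD was nearly absent, with 5 to 16 counts per library, and was not called in any comparison in which it was tested.

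Among the 8 genes of autophagosome formation, WIPI1 stood out. WIPI1 binds phosphatidylinositol 3-phosphate on the forming autophagosome membrane (chr17:68420948-68457513, - strand). It was 26.0, 27.7 and 27.7 CPM in vehicle A and 69.0, 69.9 and 72.5 CPM in high-dose WESF. This was the largest change of any member, 2.60-fold (log2 fold change 1.38, SE 0.051, adjusted p 6.80e-13). It was 26.5, 27.3 and 26.9 CPM in vehicle B and 51.3, 55.6 and 55.3 CPM in high-dose EESF, 2.01-fold higher (log2 fold change 1.01, SE 0.060, adjusted p 8.33e-08). Its exons share 829 bases with ARSG on the opposite strand, and ARSG was not called with either extract (log2 fold change -0.20 and 0.18).

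The kinase ULK1, which starts autophagy, rose by a log2 fold change of 0.30 with high-dose WESF and 0.15 with EESF, the latter call being lost in 8 of 13 alternative fits. ATG9A, a lipid scramblase whose vesicles seed the membrane, rose by 0.21 and 0.16, the EESF call being lost in 3 of 13. ATG16L1, part of the complex that attaches ATG8 proteins to lipid, rose with WESF (0.24) and had a log2 fold change of 0.12 with EESF that was not called. ATG7, the enzyme that activates ATG8 proteins for this step, went the other way and fell by 0.28 with WESF, with -0.05 and no call for EESF. ATG7 shares 1597 exon bases with VGLL4 on the opposite strand, which fell with both (0.42 and 0.45). ATG5, a partner of ATG16L1, and BECN1 and UVRAG, subunits of the lipid kinase complex, were called with neither extract and stayed between -0.08 and 0.07. Of the 8 genes of this role 4 were higher and 1 lower with WESF (backgrounds 34.3% and 34.6%), and 3 were higher and 0 lower with EESF (backgrounds 29.3% and 28.7%), ULK1 and ATG9A among the 3.

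The ATG8 family and its receptor were divided as well. MAP1LC3B, the LC3 protein used to mark autophagosomes (chr16:87383953-87404779, + strand), was 83.2, 84.1 and 76.0 CPM in vehicle A and 118, 122 and 128 CPM in high-dose WESF. In batch B it was 78.4, 85.5 and 79.0 CPM with the vehicle and 109, 99.8 and 109 CPM with high-dose EESF. The groups were apart in both batches, with log2 fold changes of 0.60 (SE 0.050, adjusted p 1.55e-08) for WESF and 0.38 (SE 0.058, adjusted p 0.000117) for EESF.

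SQSTM1, which encodes p62, the receptor that carries ubiquitinated cargo into autophagosomes (chr5:179806398-179838078, + strand), fell. It was 553, 522 and 525 CPM in vehicle A and 334, 340 and 333 CPM in high-dose WESF. It was 548, 523 and 528 CPM in vehicle B and 392, 397 and 412 CPM in high-dose EESF. The vehicles overlapped each other and neither met its high-dose group, with log2 fold changes of -0.67 (SE 0.042, adjusted p 4.06e-10) for WESF and -0.41 (SE 0.049, adjusted p 1.60e-05) for EESF. SQSTM1 shares 1582 exon bases with MRNIP on the opposite strand, which fell by 0.18 with WESF and was not called with EESF (0.10). GABARAP, an ATG8 protein of the other subfamily, fell by 0.21 and 0.19, while its relative GABARAPL1 rose by 0.32 with WESF and was not called with EESF (0.14). Full values are given for MAP1LC3B, SQSTM1, NPC1 and MCOLN1 because they were DEGs at 1 high dose, a choice made after their values were seen.

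The 4 proteins of the lysosomal membrane included a clear rise and a clear fall. NPC1, which exports cholesterol from the lysosome (chr18:23506184-23586506, - strand), was 213, 221 and 232 CPM in vehicle A and 347, 345 and 325 CPM in high-dose WESF. It was 219, 225 and 235 CPM in vehicle B and 325, 300 and 265 CPM in high-dose EESF, where the libraries were spread more widely but all lay above the vehicle. The rise was 0.61 (SE 0.047, adjusted p 4.40e-09) for WESF and 0.39 (SE 0.070, adjusted p 0.000423) for EESF on the log2 scale. Its exons share 619 bases with RMC1 on the opposite strand, which rose by 0.36 and 0.43, so that the 2 cannot be fully told apart if reads were counted without strand.

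MCOLN1, the calcium channel TRPML1 of the lysosome (chr19:7522624-7534009, + strand), was 23.4, 22.2 and 21.3 CPM in vehicle A and 12.9, 13.0 and 13.1 CPM in high-dose WESF. It was 21.8, 20.8 and 21.7 CPM in vehicle B and 14.8, 16.3 and 14.2 CPM in high-dose EESF. The groups did not meet in either batch, with log2 fold changes of -0.78 (SE 0.065, adjusted p 1.51e-08) for WESF and -0.50 (SE 0.073, adjusted p 8.27e-05) for EESF. LAMP1 and LAMP2, the abundant glycoproteins that line the lysosomal membrane, changed little. With WESF their log2 fold changes were -0.08 and -0.01 and not called, and with EESF they fell by 0.12 and 0.14, calls that were each lost in 7 of 13 alternative fits.

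The proteases changed by small amounts. CTSB (cathepsin B) rose with both extracts, by log2 fold changes of 0.20 with WESF and 0.23 with EESF, and CTSD (cathepsin D) fell with both, by 0.24 and 0.15, although its EESF call was lost in 5 of 13 alternative fits. CTSZ, CTSA and CTSL fell with WESF, by 0.31, 0.15 and 0.12, and were not called with EESF (-0.10, -0.08 and -0.03), and the call of CTSL was lost in 3 of 13. CTSZ shares 6136 exon bases with NELFCD on the opposite strand, and NELFCD fell with both extracts, by 0.38 and 0.23. TPP1, a tripeptidyl peptidase, was called with neither (0.09 and 0.00).

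Of the 7 hydrolases and cofactors, SGSH, the sulfamidase that degrades heparan sulfate (chr17:80206716-80220923, - strand), changed most. It was 36.6, 36.5 and 35.3 CPM in vehicle A and 20.2, 19.1 and 20.0 CPM in high-dose WESF. It was 38.1, 37.1 and 35.8 CPM in vehicle B and 23.0, 25.6 and 24.7 CPM in high-dose EESF. In both batches the high-dose group was tight and far below its vehicle, with log2 fold changes of -0.87 (SE 0.056, adjusted p 5.09e-10) for WESF and -0.60 (SE 0.063, adjusted p 7.02e-06) for EESF. NEU1, a sialidase, fell by 0.40 with WESF and 0.16 with EESF, the latter lost in 2 of 13 alternative fits. GAA, the acid glucosidase that degrades glycogen, rose by log2 fold changes of 0.20 and 0.33. GLA (alpha-galactosidase A), HEXA (a subunit of hexosaminidase), the activator precursor PSAP and the cholesterol carrier NPC2 were called with neither extract. Per kilobase of exon PSAP was the most abundant member, at 179.6 CPM in vehicle A, and its libraries were 583, 539 and 556 CPM there and 578, 579 and 580 CPM with high-dose WESF.

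Members with and without the E-box in their promoter went both ways. Of the 8 with TCACGTG, 1 rose (GAA) and 6 fell at each high dose. The 6 falls with WESF were counted in all 13 alternative fits. With EESF they numbered 5 with no filter on low counts or without high-dose EESF replicate 1 or 3 or vehicle B replicate 3. They numbered 4 without high-dose EESF replicate 2 or vehicle B replicate 2. Without vehicle B replicate 1 or with the replicate number as a block they numbered 3, as LAMP1, CTSD and NEU1 lost their calls. The member not called was LAMP1 with WESF and CTSA with EESF, and the median log2 fold changes were -0.23 and -0.15. Of the 22 members whose listed promoters lack it, 7 rose and 9 fell with WESF and 6 rose and 5 fell with EESF, with medians of 0.00 and -0.04. Among all genes tested, 34.3% were higher and 34.6% lower with WESF, and 29.3% and 28.7% with EESF. WIPI1, NPC1, MAP1LC3B and SQSTM1 were among these 22, and SGSH had no promoter in the table. MCOLN1 and GAA, whose promoters hold the same 10 letters as printed above, fell and rose.

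The changes of the members were compared between the extracts by a test of the difference of differences in 12 libraries (interaction, edgeR), at high doses that are not equal in µg/mL. The fit treated the libraries of both vehicles as independent. Yet the same-numbered ones ran in parallel, with summed member levels of 5318, 5196 and 5126 CPM in vehicle A and 5330, 5205 and 5128 CPM in vehicle B. How linking them would change these p-values was not tested. The change differed for 8 of the 37 members, beside a background of 26.0% of 13376 genes tested. For 7 of them the change with EESF was the higher of both, as the fall was smaller with EESF (TFEB, MCOLN1, SGSH, SQSTM1 and NEU1), the gene fell with WESF and was not called with EESF (FLCN), or it rose with EESF and was not called with WESF (TFE3). For WIPI1 the change was lower with EESF, since its rise was smaller. TFEB had the largest difference, 0.60 on the log2 scale (SE 0.13, adjusted p 0.00349), and was the only member past 1.5-fold (background 3.88%), a margin lost when any 1 of 5 libraries was left out. The call of MCOLN1 (0.28, adjusted p 0.0347) was lost in 10 of 19 alternative fits, and that of SGSH with the replicate number as a block (adjusted p 0.0561). FLCN differed by 0.40 (adjusted p 0.00449), WIPI1 by -0.37 (adjusted p 0.00208) and TFE3 by 0.27 (adjusted p 0.00305). MITF did not pass the test, with a difference of -0.02 (SE 0.12), and neither did NPC1 (-0.22, adjusted p 0.0752) or MAP1LC3B (-0.21, adjusted p 0.0538), which were called in 2 and 7 of 19 alternative fits. The vehicles themselves gave no member called between batches among 36 tested (background 0.0%), with 2 at an unadjusted p under 0.05, against 2.85% of all genes, and 0 called by DESeq2. Because the same-numbered libraries of both vehicles ran in parallel, this unpaired comparison cannot show how far independent batches would agree.

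**Figure D3:**
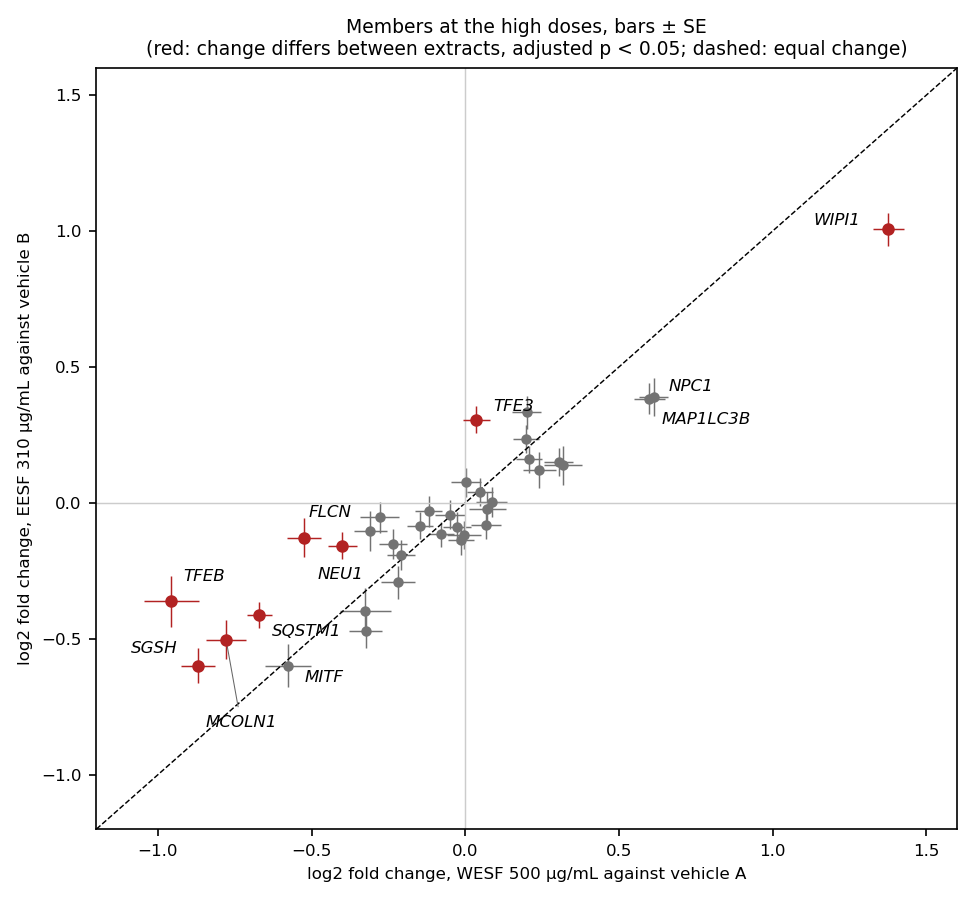
Log2 fold change of 36 members with high-dose WESF (horizontal) and high-dose EESF (vertical), each against its vehicle, with bars of 1 SE; RRAGD, with 5 to 16 counts per library, is left out, and the dashed line marks equal change. The 8 red genes are those whose change differed between the extracts, with TFEB farthest from the line at a difference of 0.60 and WIPI1 below it at -0.37.

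Below the high dose few members were called. With medium-dose WESF 1 of 37 members was called, GABARAP, which fell by 0.17 (SE 0.045, adjusted p 0.0455), beside a background of 4.1% of 13112 genes. This call was lost in 8 of 13 alternative fits. Its libraries were 182, 168 and 166 CPM in vehicle A and 153, 156 and 149 CPM at the medium dose. A further 10 had an unadjusted p under 0.05 without passing the adjustment (21% of all genes tested had such a p, called or not), among them MCOLN1 (-0.23), WIPI1 (0.19), SQSTM1 (-0.15) and NPC1 (0.13), and TFEB was not among them. With medium-dose EESF 1 of 36 members tested was called, FNIP2, which fell by 0.24 (SE 0.069, adjusted p 0.0283; background 15.4%), at 17.8, 18.4 and 19.6 CPM in vehicle B and 15.9, 15.8 and 15.5 CPM at the medium dose. This call was lost in 6 of 13 alternative fits.

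With low-dose WESF no member was called by edgeR or by DESeq2, and 0 had an unadjusted p under 0.05, against 3.58% of all genes (background 0.0% of 13131 genes). With low-dose EESF none of the 36 tested was called by either tool, beside a background of 9.35%, while 11 had an unadjusted p under 0.05, as did 26.3% of all genes tested. Without replicate 1 of vehicle B, 6 of the members were called there, beside 20.6% of the 12999 genes then tested. Compared with the low dose of the same extract in place of the vehicle, high-dose WESF gave 9 members that rose and 15 that fell of 36 tested (background 68.1%), and high-dose EESF gave 8 and 16 of 37 (background 57.0%). Against low-dose EESF, the falls of CTSA, NPC2, ATG7 and FLCN and the rise of ATG16L1 were called, unlike against vehicle B. LAMP2 and ULK1 were called against vehicle B only. In alternative fits ATG7 fell there by 0.17 to 0.20 and FLCN by 0.23 to 0.28 on the log2 scale. WIPI1 and SGSH were DEGs in both of these comparisons (background 23.0% and 14.6%), at log2 fold changes of 1.35 and -0.93 for WESF and 0.90 and -0.67 for EESF.

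The rest of the lysosomal and autophagy system was described with 5 further lists. Of 35 other lysosomal enzymes and cofactors, 5 rose and 16 fell with high-dose WESF, and 7 rose and 14 fell with high-dose EESF. The acid phosphatase ACP2 fell by 0.95 and 0.55. The protease DPP7 rose, by log2 fold changes of 0.21 and 0.52, CTSK (cathepsin K) by 0.44 with WESF (lost in 6 of 13 alternative fits) and IDUA, the iduronidase, by 0.39 with EESF (lost in 3 of 13).

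Of 25 other genes of lysosomal membrane, transport and sorting, 4 rose and 15 fell with WESF, and 3 rose and 15 fell with EESF. SLC17A5, the sialic acid exporter sialin, rose by 1.71 and 0.91 on the log2 scale, and PIP4P1, a phosphoinositide phosphatase, by 0.43 and 0.37. The ion channels TMEM175 and TPCN2 fell with WESF by 1.04 and 0.89. IGF2R, the receptor that sorts enzymes carrying mannose 6-phosphate, fell by 0.63 with WESF and by 0.79 with EESF. In this list the count that fell was 15 of 25 in both comparisons, beside backgrounds of 34.6% and 28.7% for lower genes, and its median log2 fold change was -0.17 and -0.20.

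Of the other autophagy machinery, 13 of 33 rose and 9 fell with WESF and 13 of 32 rose and 9 fell with EESF. ATG16L2, a relative of ATG16L1, rose by 1.09 and 1.08, ATG101, a subunit of the ULK1 complex, by 0.83 with WESF, and VAMP8, a SNARE of autophagosome fusion, by 0.79 with EESF (lost in 8 of 13). The lipid kinase PIK3C3 fell by 0.57 and 0.58, and ATG10 by 0.68 with WESF. ATG2B, a lipid transfer protein, fell by 0.25 with WESF and by 0.69 with EESF. Of 13 other autophagy receptors, 5 rose and 7 fell with WESF and 3 rose and 6 fell with EESF. CALCOCO2 rose by 0.46 and 0.17 and NBR1 by 0.39 and 0.22, whereas RETREG1, a receptor for the endoplasmic reticulum, fell by 1.28 and OPTN by 0.42 with WESF. WDFY3 fell by 0.17 with WESF and 0.68 with EESF, and BNIP3 by 0.29 with WESF and 0.46 with EESF.

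Of 31 tested genes of mTORC1 and lysosomal nutrient sensing, 9 rose and 13 fell with WESF and 7 rose and 8 fell with EESF. SESN2, a leucine sensor that restrains mTORC1, rose by 1.65 and 1.10, and WDR24, a subunit of the GATOR2 complex, by 1.295 and 0.94. RRAGB fell by 0.97 and 0.51 and the mTORC1 inhibitor TSC2 by 0.50 and 0.38. SESN3 fell by 0.61 with EESF and was not called with WESF (-0.04). The median log2 fold change of all these lists together was -0.07 with either extract.

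**Figure D4:**
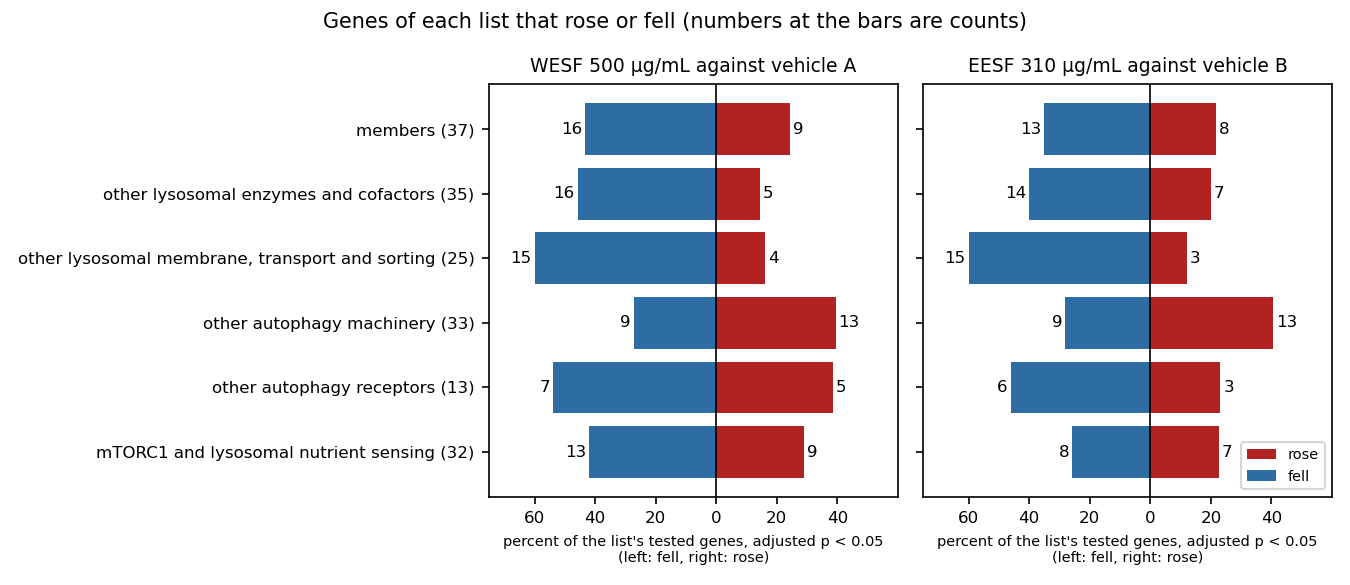
Share of the tested genes in each list that rose (right) or fell (left) with an adjusted p under 0.05 at the high dose of WESF or EESF, with the number of genes at each bar and the number listed in parentheses. The backgrounds over all genes were 34.3% higher and 34.6% lower with WESF and 29.3% and 28.7% with EESF.

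The label of the cells was checked against markers. Of 10 astrocyte and glioma genes, 5 (GFAP, S100B, AQP4, ALDH1L1 and SLC1A2) averaged under 1 CPM in every group, and VIM (4821 CPM in vehicle A) and CD44 (2836 CPM) were the most abundant. CD44 was 1722 CPM in high-dose WESF and 2077 CPM in high-dose EESF, against 2896 CPM in vehicle B. SLC1A3, an astrocyte glutamate transporter, fell from 31.8 ± 1.67 to 10.4 ± 0.64 CPM with WESF and from 31.8 ± 1.04 to 12.1 ± 0.85 CPM with EESF (SD, n = 3). SOX9 fell by 0.69 and 0.82 and NES by 1.21 and 0.45 on the log2 scale, while VIM was not called (-0.01 and 0.10). The melanocyte list, chosen because of MITF, summed to 3.74 to 4.05 CPM in vehicle A and 1.71 to 2.71 CPM in high-dose WESF, with TYRP1 its most abundant gene. In batch B it was 3.14 to 4.08 CPM with the vehicle and 2.27 to 3.15 CPM with high-dose EESF. The microglia and macrophage list summed to 190 to 201 CPM in vehicle A, 208 to 240 CPM in high-dose WESF, 202 to 226 CPM in vehicle B and 269 to 277 CPM in high-dose EESF, and nearly all of it was CD68, itself a lysosomal protein. Its members PTPRC and CSF1R, the surface markers CD45 and the CSF1 receptor, fell instead, PTPRC from 10.2 ± 0.62 to 2.12 ± 0.18 CPM with WESF and from 9.81 ± 0.82 to 1.88 ± 0.34 CPM with EESF (SD, n = 3), and CSF1R by 1.32 and 0.96 on the log2 scale. AIF1 and CX3CR1 were at or near 0 in every group.

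The neuron list, mostly TUBB3, was 163 to 166 CPM in vehicle A and 79.4 to 87.1 CPM in high-dose WESF, and 164 to 172 CPM in vehicle B and 99.8 to 109 CPM in high-dose EESF. RBFOX3 of this list, scarce in every group, went up instead. Its mean was 0.11 CPM in vehicle A and 0.71 CPM in high-dose WESF, and 0.14 and 0.56 CPM in batch B. The epithelial list, mostly KRT18, was 133 to 150 CPM in vehicle A and 62.1 to 66.7 CPM in high-dose WESF, and 126 to 136 and 80.5 to 101 CPM in batch B. KRT8, the other keratin of that list above 1 CPM, rose by 0.20 and 0.31 on the log2 scale. The oligodendrocyte list, mostly MBP, was 6.75 to 7.74 and 11.7 to 14.5 CPM in batch A and 6.65 to 7.32 and 9.84 to 10.4 CPM in batch B, and the endothelial list was 1.13 to 1.29 and 0.42 to 1.01 CPM in batch A and 0.84 to 1.55 and 0.80 to 0.95 CPM in batch B. The share of mitochondrial mRNA was 9.02% to 9.21% in vehicle A and 6.76% to 8.45% in high-dose WESF, and 10.2% to 10.5% and 10.1% to 10.9% in batch B. The mitochondrial share and the endothelial and melanocyte lists overlapped between the groups of batch B. Where these values moved with a high dose, their part in the members' changes was not tested.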

How the data were processed

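The authors trimmed reads with Trim Galore 0.6.6 after FastQC 0.11.9, aligned them with STAR 2.7.9a and counted them with RSEM 1.3.3, and the values deposited are its expected counts for each gene, neither normalized nor filtered. RSEM divides reads that fit several genes, and 10.9% of values were not whole. The library kit keeps strand, and whether counting used it is not given in the sources used here. The methods name both GRCh38 and hg19, and the identifiers belong to GRCh38. Symbols, positions and exon lengths came from GENCODE release 44. Totals were 18727797 to 32567395 per library. Replicates differed by more than sampling noise (chi-square per degree of freedom 2.05 to 14.1).

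Counts were rounded, and protein-coding genes passing filterByExpr were fitted with edgeR 4.0.16 (TMM, quasi-likelihood, 2-sided) in R 4.3.3, each comparison on its own 6 libraries and the interaction on 12. Benjamini-Hochberg adjustment covered all genes tested. Thresholds of 0.05 and 1.5-fold follow the study's methods, which used DESeq2. The fits were tested on simulated data, and no outcome of that test is reported here.

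The members, the 5 further lists and the marker lists were chosen with earlier results of these data known. All members are accounted for. By the rule, values per library are given for members that were DEGs at both high doses or in the interaction and for the MiT/TFE factors; those of MAP1LC3B, SQSTM1, NPC1, MCOLN1, FLCN, PSAP, GABARAP and FNIP2 were added after their values were seen. From each further list the 2 largest rises and falls called at each high dose are named, except 2 genes that are not reported here. Alternatives were DESeq2 1.42.0, its size factors, no filter, all genes, counts thinned to 18727769 per library, all groups in the fit, the replicate number as a block, and each library left out.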

Additional observations from a re-analysis of the deposited data

Results flagged for a closer look

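For 8 members the change from vehicle at the high dose differed between EESF and WESF by the interaction test of edgeR with Benjamini-Hochberg adjustment, which called 26.0% of the 13376 genes tested. Each extract was run in its own batch at its own dose, so extract, dose and batch cannot be told apart. The fit did not link the same-numbered vehicle libraries of the batches, which ran in parallel. The difference, EESF minus WESF on the log2 scale, was 0.60 for TFEB, 0.40 for FLCN, 0.28 for MCOLN1, 0.27 for SGSH, 0.27 for TFE3, 0.26 for SQSTM1 and 0.24 for NEU1. For WIPI1 it was -0.37. The call of MCOLN1 was lost in 10 of 19 alternative fits and that of SGSH with the replicate number as a block.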

How the results depend on the processing

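With high-dose WESF 25 members were called under each of the 7 alternatives that kept all libraries, and 24 to 26 when a library was left out (6 to 8 DEGs). With high-dose EESF they numbered 15 to 22 and 17 to 22 (2 to 3 DEGs). The count of called members at medium-dose WESF, 1, was 2 with DESeq2, with no filter or with thinned counts, 3 with all groups of the batch in the fit, 0 with all genes, and 0 to 5 when a library was left out, the highest without vehicle A replicate 1. GABARAP itself lost its call there in 8 of 13 alternatives, among them thinned counts and all groups. At medium-dose EESF, where FNIP2 lost its call in 6 of 13, the count went from 1 to 0 with DESeq2 and 0 to 2 when a library was left out (2 without vehicle B replicate 1), and at low-dose EESF the count was 0 to 6, the highest without the same library. The interaction gave 6 to 11 members, and 7 to 14 when a library was left out, the highest without high-dose EESF replicate 1. Its only DEG, TFEB, kept its call in all 19 alternatives (0.50 to 0.66) but fell below 1.5-fold (DEG count 0 to 1) without vehicle A replicate 1, WESF high replicates 1 or 3, vehicle B replicate 1 or EESF high replicate 3.

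Of 148 changes of single genes followed through 1990 fits, 1884 kept direction and side of the threshold, 93 lost and 9 gained a call, and 4 reversed, all for the uncalled interaction of MITF, which ranged from -0.093 to 0.053 when a library was left out (0.053 without vehicle A replicate 1, 0.031 without high-dose WESF replicate 2, 0.049 without vehicle B replicate 2 and 0.016 without high-dose EESF replicate 3). The interaction of MCOLN1 lost its call in 10 of 19 alternatives, and those of MAP1LC3B and NPC1 gained one in 7 and 2. The EESF calls of ULK1, LAMP1, LAMP2, CTSD, ATG9A and NEU1 were lost in 8, 7, 7, 5, 3 and 2 of 13, the WESF call of CTSL in 3 and the EESF call of IDUA in 3. The cause was not tested. Within a batch, libraries with the same number did not deviate together (r from -0.20 to 0.09 over 24 pairs), so the numbers do not pair them there. Vehicle A against vehicle B was left out of that check. Across the batches, the same-numbered vehicle libraries ran in parallel. Their summed member levels were 5318, 5196 and 5126 CPM in vehicle A and 5330, 5205 and 5128 CPM in vehicle B. Whether they share material is not stated, and pairing them was not tested. With the replicate number as a block, called members went from 21 to 15 at high-dose EESF, from 8 to 6 in the interaction, where SGSH lost its call (adjusted p 0.0561), and from 1 to 0 at medium-dose WESF, and stayed at 25 at high-dose WESF. Levels per kilobase moved by more than 1 SD of the replicates for 35 of 37 members when the longest transcript replaced all exons. Depth limits RRAGD most.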
